A study of Mus musculus with 64 samples.

Results

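Solute carriers are the membrane proteins named Slc, followed by a family number, that move sugars, amino acids, metals, nucleotides and ions across the plasma membrane and the membranes of organelles. They were taken from the expression table as every gene whose symbol is Slc followed by a digit, leaving out Slc11a1 and Slc40a1, which gave 86 of 5647 genes. They were sorted by the substance they are known to carry into 12 groups. Microglia were sorted as live (7-AAD negative) CD11b+ CD45low cells from the brains, without cerebellum, of individual wild-type C57BL/6J mice, and each mouse gave 1 bulk RNA-seq library. Females given PBS, the vehicle, were 3 (4 libraries), 6 (2), 9 (3), 12 (4), 14 (5), 16 (5) and 24 (3) months old. Males given PBS were 3 (4 libraries), 6 (4), 9 (4), 12 (2), 16 (4), 19 (5) and 24 (4) months old. Females given lipopolysaccharide (LPS), a bacterial cell wall component that sets off inflammation, by intraperitoneal injection shortly before being killed were 3, 14 and 24 months old (3, 5 and 3 libraries), and no male LPS library was analysed here.

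A carrier sets what a cell can take up and what its compartments can exchange, so the carriers a cell makes show which nutrients it can use. In microglia, glucose enters through GLUT1 (Slc2a1), and GLUT5 (Slc2a5), a fructose transporter, is a marker of these cells. Amino acid carriers of the plasma membrane often work as exchangers paired with the heavy chain CD98 (Slc3a2), whereas lysosomal carriers return digested peptides, nucleosides and metals to the cytosol. Most members of the Slc25 family are mitochondrial carriers that connect the cytosol with the matrix.

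Values are FPKM (fragments per kilobase of transcript, scaled to the fragments mapped in each library) that were adjusted for batch and rounded, so levels are per transcript length and can be compared between genes. Log2 fold changes and their standard errors (SE) were fitted with limma on log2(value + 1), and a gene is written as called, risen or fallen where the Benjamini-Hochberg adjusted p over all genes was under 0.05 and the fold was over 1.5. Library totals ran from 408457 to 554459, and the number of reads behind them is unknown, so no counting interval can be given. All 10 microglia markers were measured, with summed levels of 14584 to 26494 in the 64 libraries, and none of 7 neuron markers was in the table. The table holds only genes averaging at least 10 FPKM, so a marker missing from it does not show that its cells were absent. Markers of neutrophils were also present in the libraries (summed level 344 to 32338 over 14 genes), as were those of monocytes (57 to 1465 over 5) and border macrophages (202 to 808 over 7). Fewer markers were measured for erythroid cells (0 to 451 over 3), choroid plexus (0 to 449 over 2) and endothelial cells (4 to 96 over 2). The same held for oligodendrocytes (40 to 114 over 3) and astrocytes (5 to 48 over 2). The part of these cells in the carriers' differences was not tested. In bulk RNA, fewer cells of a type and less RNA per cell cannot be told apart. The 3-month PBS females are the control of both the female ages and LPS at 3 months, and replicates were closer there (median SD of the carriers 0.163 on the log2 scale) than in the other groups of 3 or more libraries (0.203 to 0.408). The 14-month and 24-month PBS females likewise stand in the age series and in the LPS comparisons, whereas the 3 LPS comparisons share no library with each other.

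Together the carriers made up 0.706% to 1.09% of the library totals. The highest was Slc25a5, which exchanges ADP for ATP across the inner mitochondrial membrane, with a mean level of 528 FPKM over the 64 libraries. Next came Slc2a5 at 434 FPKM, the heavy chain Slc3a2 at 279 FPKM and the zinc importer Slc39a1 at 239 FPKM. The mitochondrial phosphate carrier Slc25a3 followed at 122 FPKM and the neutral amino acid exchanger Slc7a8 at 119 FPKM, and the lowest member, the aspartate and glutamate carrier Slc25a12, had a mean of 10 FPKM.

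By substrate, the largest groups were the mitochondrial carriers and the carriers of metals and heme (16 members each), then amino acids (13) and nucleotide sugars with other Golgi carriers (12). There were 7 carriers of inorganic ions, 6 of sugars, 6 of vitamins, choline and other cofactors, 3 of monocarboxylates and other organic acids, 2 of nucleosides, 2 of peptides and 1 of the bile acid carrier family (Slc10a3). Both nucleoside carriers were high, the lysosomal Slc29a3 at 110 FPKM and the plasma membrane Slc29a1 at 105 FPKM. The other 2 members, Slc4a1ap and Slc9a3r1 (NHERF1), are adaptor proteins named after carriers they bind and carry nothing themselves. The substrate of a few members, such as Slc35f5 and Slc10a3, is not settled, and they were placed with their family. The mitochondrial and Golgi groups hold all members of the Slc25 and Slc35 families, whichever membrane a member sits in.

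The abundant carriers differed in how much they varied between groups. The ratio of the highest to the lowest of the 17 group means was 1.39 for Slc25a5 and 1.41 for Slc3a2, but 2.01 for Slc2a5 and 2.23 for Slc39a1. It was widest for Slc2a1 (3.50), followed by the zinc importer Slc39a10 (3.22) and the iron importer Slc11a2, also called DMT1 (2.89). Over 11 comparisons (age as a whole and 12, 16 and 24 against 3 months in each sex, and LPS at 3 ages), 37 of the 86 carriers (43%) were called at least once, against 34.8% of all genes, and 49 were called in none. Slc46a3, a lysosomal relative of the folate carrier Slc46a1, was called in 5 of them, more than any other carrier.

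**Figure D1:**
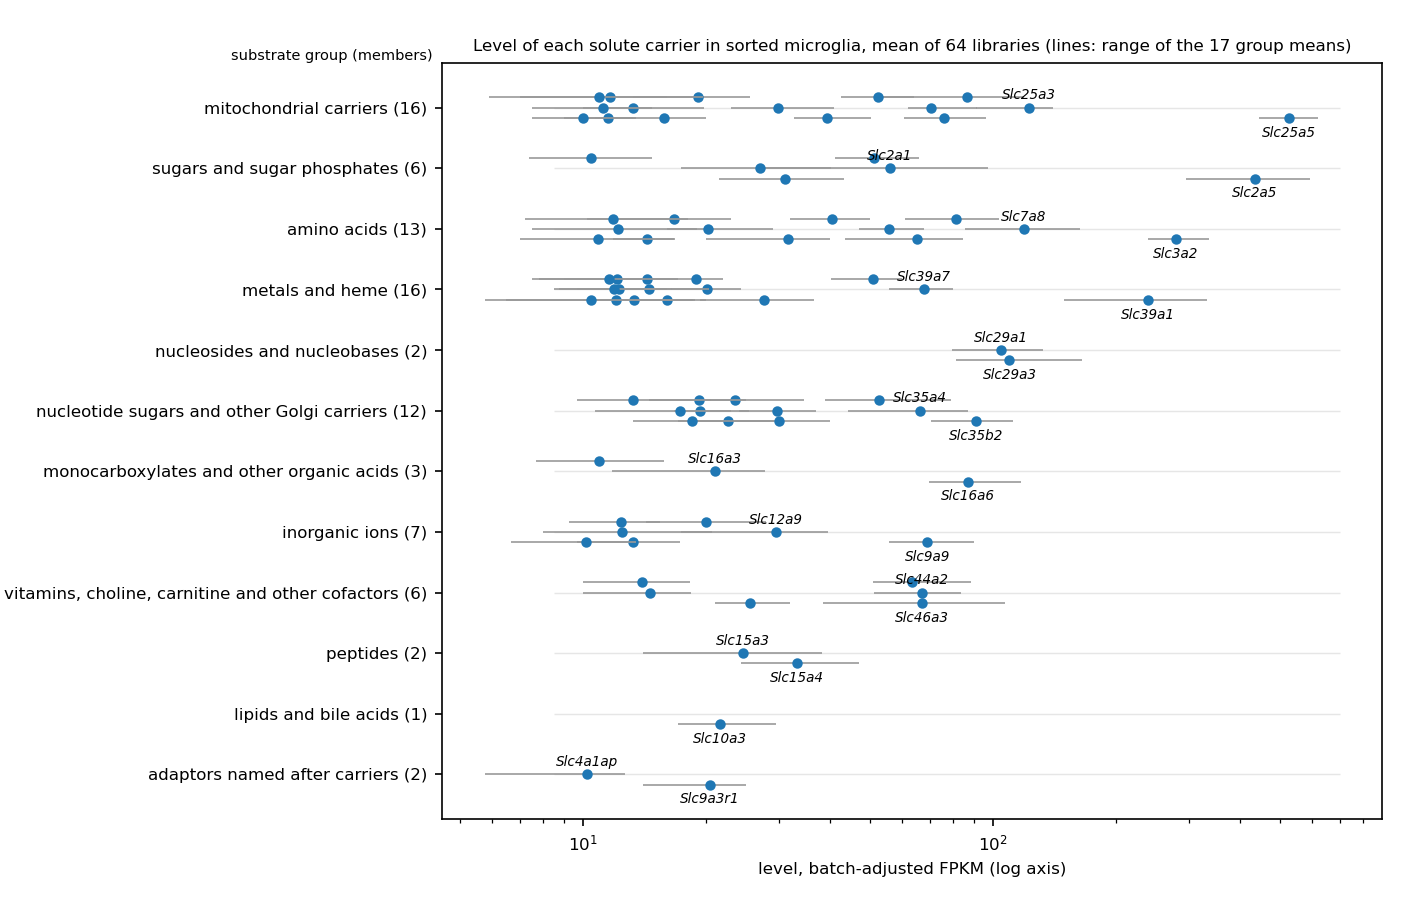
Each point is a solute carrier, placed by its mean level over the 64 libraries (batch-adjusted FPKM, log axis) in its substrate group, and the line through it runs from the lowest to the highest of the 17 group means. Slc25a5 (528 FPKM) and Slc2a5 (434 FPKM) stand at the right end, most members lie under 100 FPKM, and the 2 highest members of each group are named.

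The 250 bases upstream of the start are shown for carriers on which the results turn: Slc2a1, Slc39a1, Slc35f5 and Slc7a6, which were higher after LPS at 2 ages each, Slc46a3, which was lower after LPS and in middle-aged females, and Slc16a3, which was higher in old males. They are RefSeq sequences on the GRCm38.p6 build, written 5′ to 3′ on the strand of the gene, and capitals mark matches, on either strand, to the hypoxia response core (ACGTG), the GC box (GGGCGG) and the CCAAT box. Each start is the one that belongs to the promoter window and need not be the outermost start of the gene. The windows of Slc7a6 and Slc16a3 lie inside their genes, which begin at chr8:106168219 and chr11:120948484.
Slc2a1 (chr4:119108495-119108744, plus strand): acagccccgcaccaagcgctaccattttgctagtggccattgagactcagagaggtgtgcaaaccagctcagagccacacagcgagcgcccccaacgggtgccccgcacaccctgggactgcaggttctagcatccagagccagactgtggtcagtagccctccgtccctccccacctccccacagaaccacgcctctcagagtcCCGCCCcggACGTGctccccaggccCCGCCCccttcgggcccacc
Slc39a1 (chr3:90247942-90248191, plus strand): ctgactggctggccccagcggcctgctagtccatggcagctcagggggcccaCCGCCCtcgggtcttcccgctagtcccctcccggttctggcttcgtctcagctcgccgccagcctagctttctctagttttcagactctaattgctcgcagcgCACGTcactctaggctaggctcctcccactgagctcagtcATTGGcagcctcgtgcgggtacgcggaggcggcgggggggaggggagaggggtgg
Slc35f5 (chr1:125560345-125560594, plus strand): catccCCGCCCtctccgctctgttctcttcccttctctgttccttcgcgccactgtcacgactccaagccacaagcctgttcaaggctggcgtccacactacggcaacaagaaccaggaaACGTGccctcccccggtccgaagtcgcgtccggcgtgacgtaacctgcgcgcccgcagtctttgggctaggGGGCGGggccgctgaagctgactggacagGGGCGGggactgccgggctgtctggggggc
Slc7a6 (chr8:106168671-106168920, plus strand): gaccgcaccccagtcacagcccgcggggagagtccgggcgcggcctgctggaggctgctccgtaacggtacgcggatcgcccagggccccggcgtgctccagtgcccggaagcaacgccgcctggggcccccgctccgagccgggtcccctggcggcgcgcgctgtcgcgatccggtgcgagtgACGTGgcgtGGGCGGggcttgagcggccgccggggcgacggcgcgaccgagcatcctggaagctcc
Slc46a3 (chr5:147894816-147895065, minus strand): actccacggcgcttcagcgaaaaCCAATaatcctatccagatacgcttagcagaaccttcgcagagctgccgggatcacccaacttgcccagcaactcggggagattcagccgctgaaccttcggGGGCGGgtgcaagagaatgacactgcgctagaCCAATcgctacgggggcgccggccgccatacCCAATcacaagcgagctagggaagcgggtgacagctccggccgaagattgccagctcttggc
Slc16a3 (chr11:120948817-120949066, plus strand): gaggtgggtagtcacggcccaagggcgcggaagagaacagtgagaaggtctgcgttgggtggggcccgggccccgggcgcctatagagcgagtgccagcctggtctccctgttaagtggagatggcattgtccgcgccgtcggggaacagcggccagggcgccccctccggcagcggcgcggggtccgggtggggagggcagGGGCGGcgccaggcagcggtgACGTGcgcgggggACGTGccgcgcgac

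RefSeq windows were matched to 71 of the 86 carriers, 96 windows in all because some genes have several starts. A GC box stood in 60.4% of them, against 32.7% of the 32851 RefSeq promoters. Those promoters were not limited to the genes of the expression table, whereas every carrier had passed its cutoff of 10 FPKM. Shares among the expressed genes alone were not computed, so a difference here cannot be credited to the carriers. The hypoxia response core was in 25% (24 windows) against 16.6%, and the E-box CACGTG, which contains that core, in 11.5% against 6.02%. The CCAAT box was in 30.2% against 33.8%, and AP-1 (TGANTCA) in 5.21% against 6.75%. Of the motifs of inflammatory factors, the kappaB motif was in 1 window (1.04% against 1.41%) and the interferon-stimulated response element in 0 against 2.98%. Among the windows printed, the core stood 36 bases before the start of Slc2a1, 95 before that of Slc39a1, 130 before that of Slc35f5, 66 before that of Slc7a6 and 27 and 14 before that of Slc16a3, and Slc46a3 had 3 CCAAT boxes and no core. These matches are letters in a window and were not tested for binding.

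The first comparison asks what LPS did at 3 months. At that age 16 of the 86 carriers (18.6%) were called, against 11.2% of all genes, with 8 higher (6.16% of all genes) and 8 lower (5.08%). Importers of metals, a glucose carrier, 2 amino acid carriers, a lysosomal peptide carrier and the Slc35 family member Slc35f5 rose, and lysosomal carriers of nucleosides and the Slc46 family fell. The median log2 fold change of the carriers was -0.18, beside -0.14 over all genes. The calls rest in part on single libraries, since 6 carriers were called without LPS replicate 2 and 8 without LPS replicate 3.

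Of the 16 carriers of metals and heme, 3 rose and 1 fell. Slc39a1, a plasma membrane zinc importer, was at 146, 152, 158 and 141 FPKM after PBS and at 225, 341 and 287 FPKM after LPS. Each LPS library was above each PBS library, and the log2 fold change was 0.91 (SE 0.18, limma adjusted p = 0.00143). The copper importer Slc31a1 was at 17, 23, 20 and 17 FPKM after PBS and at 36, 36 and 38 FPKM after LPS, with no overlap, a log2 fold change of 0.91 and an SE of 0.17 (limma adjusted p = 0.000902). Slc11a2, which imports ferrous iron, was at 7, 6, 7 and 6 FPKM after PBS and at 14, 16 and 16 FPKM after LPS. Its groups did not overlap either, with a log2 fold change of 1.12 (SE 0.27, limma adjusted p = 0.00801). These 3 calls held with each library left out in turn. The zinc carrier Slc39a11 fell (log2 fold change -0.75, SE 0.24, limma adjusted p = 0.0426), a call lost with 6 of 7 libraries left out in turn (-0.87 to -0.58).

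Slc2a1 was at 30, 25, 34 and 35 FPKM after PBS and at 47, 67 and 76 FPKM after LPS at 3 months. The groups did not overlap, and the ratio of their means (31 ± 4.55, SD, n = 4, and 63.3 ± 14.8, n = 3) was 2.04. Its log2 fold change was 0.99 (SE 0.24, limma adjusted p = 0.00746), and without LPS replicate 3 it was 0.85 (adjusted p = 0.0597). The fructose transporter Slc2a5 went the other way, from 669, 596, 536 and 539 FPKM after PBS to 443, 343 and 359 FPKM after LPS. All 3 LPS libraries were below the PBS libraries, with a log2 fold change of -0.62 (SE 0.17, limma adjusted p = 0.0176), but the call was lost without PBS replicate 1 and without LPS replicate 2 or 3 (-0.73 to -0.55). Of the 6 sugar carriers these 2 were called.

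Among the 13 amino acid carriers 2 rose and none fell. Slc7a6 (y+LAT2), an exchanger of cationic for neutral amino acids that pairs with Slc3a2, was at 7, 8, 8 and 7 FPKM after PBS and at 17, 14 and 17 FPKM after LPS. The groups stood apart, with a log2 fold change of 1.00 (SE 0.25, limma adjusted p = 0.00941) that was called with each library left out. Slc38a2 (SNAT2), a sodium-coupled carrier of small neutral amino acids, was at 21, 30, 22 and 22 FPKM after PBS and at 34, 47 and 39 FPKM after LPS. It rose by 0.73 on the log2 scale (SE 0.19, limma adjusted p = 0.0139), and by 0.61 without LPS replicate 2 (adjusted p = 0.104). The abundant members of the group did not pass: the heavy chain Slc3a2 had a log2 fold change of 0.29 (SE 0.13, limma adjusted p = 0.146), and Slc7a7, the y+LAT1 relative of Slc7a6, one of -0.0004 (SE 0.23, adjusted p = 0.999).

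The lysosomal carriers moved in both directions. Slc15a3, which exports histidine and small peptides, was at 13, 15, 14 and 14 FPKM after PBS and at 24, 38 and 31 FPKM after LPS, a rise of 1.07 on the log2 scale with no overlap (SE 0.26, limma adjusted p = 0.00775; 0.92 and adjusted p = 0.0667 without LPS replicate 2). Its relative Slc15a4 was at 54, 28, 42 and 60 FPKM after PBS and at 19, 25 and 29 FPKM after LPS. Those groups overlapped, and its log2 fold change of -0.86 (SE 0.28, limma adjusted p = 0.0447) lost the call with 6 of 7 libraries left out in turn.

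The nucleoside carrier Slc29a3 (ENT3) was at 162, 159, 168 and 171 FPKM after PBS and at 106, 71 and 76 FPKM after LPS at 3 months. The LPS libraries were all lower, with a log2 fold change of -0.98 (SE 0.24, limma adjusted p = 0.00806), or -0.87 (adjusted p = 0.0612) without LPS replicate 2. Slc46a3 was at 110, 107, 97 and 98 FPKM after PBS and at 65, 53 and 47 FPKM after LPS, again with no overlap. Its log2 fold change was -0.90 (SE 0.22, limma adjusted p = 0.00718), and -0.80 (adjusted p = 0.0527) without LPS replicate 3. The folate carrier Slc46a1 fell by 0.64 (SE 0.21, limma adjusted p = 0.0401), a call lost with each of the 7 libraries left out in turn.

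In the Golgi group Slc35f5 was at 15, 13, 12 and 13 FPKM after PBS and at 20, 25 and 28 FPKM after LPS at 3 months, with no overlap and a log2 fold change of 0.82 (SE 0.22, limma adjusted p = 0.0139). That call was lost without LPS replicate 2 (0.80, adjusted p = 0.0652) or LPS replicate 3 (0.72, adjusted p = 0.0883). Slc35b4, a carrier of UDP sugars, fell from a mean of 34.5 ± 3.11 FPKM (SD, n = 4) to 18.7 ± 3.21 FPKM (n = 3), a log2 fold change of -0.86 (SE 0.23, limma adjusted p = 0.0148) that was lost without LPS replicate 2 (-0.72, adjusted p = 0.109). Of the 16 mitochondrial carriers 1 was called, the pyrimidine nucleotide carrier Slc25a36, which fell by 0.64 (SE 0.20, limma adjusted p = 0.0335), a call lost with 6 of 7 libraries left out in turn. The falls depended on how libraries were scaled. With libraries scaled to the median ratio of their genes or to the same total, all 8 rises and 3 of the 8 falls (Slc29a3, Slc46a3 and Slc35b4) were called, the median over all genes moving from -0.14 to -0.04 under either.

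Neutrophil markers moved with the same comparison: 9 of 14 were lower after LPS at 3 months, and their summed level was 2051 to 3712 against 6875 to 18618 after PBS. Of the microglia markers 4 of 10 were lower (18203 to 21804 against 24857 to 26494), and of the border macrophage markers 0 of 7. The part of these markers in the carriers' differences was not tested.

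At 14 months 3 carriers were called, all higher, which is 3.49% of the carriers, where 1.81% of all genes were called and 1.4% were higher. The carriers' median log2 fold change was 0.10, beside 0.02 over all genes. Slc2a1 was at 82, 33, 47, 37 and 52 FPKM after PBS and at 98, 83, 108, 97 and 99 FPKM after LPS. The lowest LPS library lay just above the highest PBS library, and the log2 fold change of 1.01 (SE 0.20, limma adjusted p = 0.00721) was called with each library left out in turn. Slc35f5 was at 17, 11, 13, 17 and 15 FPKM after PBS and at 26, 29, 28, 31 and 29 FPKM after LPS. Its groups were far apart, with a log2 fold change of 0.94 (SE 0.18, limma adjusted p = 0.00628), also called in each leave-out. Slc7a6 was at 12, 6, 8, 12 and 15 FPKM after PBS and at 18, 19, 21, 17 and 20 FPKM after LPS. It rose by 0.84 with no overlap (SE 0.21, limma adjusted p = 0.0299), and this call was lost with 6 of 10 libraries left out in turn (0.68 to 0.97) and with libraries scaled to the same total.

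The other carriers called at 3 months had smaller differences at 14 months. Slc11a2 had a log2 fold change of 0.66 (SE 0.23, limma adjusted p = 0.135), Slc15a3 one of 0.56 (SE 0.21, adjusted p = 0.186) and Slc31a1 one of 0.34 (SE 0.14, adjusted p = 0.221). For Slc39a1 it was 0.21 (SE 0.15, limma adjusted p = 0.529), with PBS libraries already at 218, 358, 269, 263 and 193 FPKM and LPS libraries at 277, 257, 289, 313 and 346 FPKM. Those groups overlapped, and the 14-month PBS libraries were all above the 3-month PBS libraries. At 14 months 0 of 14 neutrophil markers and 1 of 10 microglia markers were called.

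At 24 months 8 carriers were called (9.3%, against 9.7% of all genes), 1 higher and 7 lower (4.27% and 5.44% of all genes), with a median log2 fold change of -0.27 beside -0.15 over all genes. Slc39a1 was at 171, 146 and 218 FPKM after PBS and at 345, 360 and 294 FPKM after LPS. The groups did not overlap, and the log2 fold change of 0.91 (SE 0.19, limma adjusted p = 0.00597) was called with each library left out in turn. Slc35a4, a Golgi member of the nucleotide sugar carrier family, was at 90, 72 and 98 FPKM after PBS and at 47, 43 and 43 FPKM after LPS. It fell by 0.94 on the log2 scale (SE 0.19, limma adjusted p = 0.0045), likewise in each leave-out.

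Mitochondrial carriers were among those that fell at 24 months. Slc25a38, which brings glycine into mitochondria for heme synthesis, was at 27, 17 and 15 FPKM after PBS and at 10, 5 and 6 FPKM after LPS, with no overlap and a log2 fold change of -1.38 (SE 0.32, limma adjusted p = 0.0104; -1.13 and adjusted p = 0.0688 without PBS replicate 1). Slc25a45, a mitochondrial carrier of the same family, was at 106, 116 and 105 FPKM after PBS and at 55, 44 and 82 FPKM after LPS. It fell by 0.89 (SE 0.21, limma adjusted p = 0.012), and by 0.69 (adjusted p = 0.0584) without LPS replicate 2.

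Slc46a3 was at 100, 95 and 126 FPKM after PBS and at 39, 68 and 67 FPKM after LPS at 24 months. As at 3 months the LPS libraries were all lower, with a log2 fold change of -0.90 (SE 0.23, limma adjusted p = 0.0171), and the call was lost without PBS replicate 3 (-0.78) or LPS replicate 1 (-0.65) and with libraries scaled to the same total. The sugar phosphate exchanger Slc37a2 (-0.80, SE 0.24) and the sugar carrier Slc50a1 (-0.60, SE 0.19) also fell (limma adjusted p = 0.0382 and 0.0476), and both calls were lost with 5 of 6 libraries left out in turn and under both scalings. Under the scalings 2 carriers were higher and 5 or 4 lower, where 1 and 7 were called before, so the split moved by more than 10 percentage points; the median over all genes was -0.03 or 0.02. Of the markers, 3 of 14 for neutrophils were higher after LPS at 24 months and 2 of 3 for T and NK cells lower, and their part was not tested.

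Slc2a1 and Slc35f5, both higher at 3 and 14 months, were not called at 24 months. Slc2a1 was at 44, 34 and 35 FPKM after PBS and at 65, 44 and 37 FPKM after LPS, with a log2 fold change of 0.33 (SE 0.26, limma adjusted p = 0.405). Slc35f5 was at 17, 8 and 16 FPKM after PBS and at 17, 13 and 18 FPKM after LPS (log2 fold change 0.27, SE 0.23, limma adjusted p = 0.471). In both the groups overlapped.

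**Figure D2:**
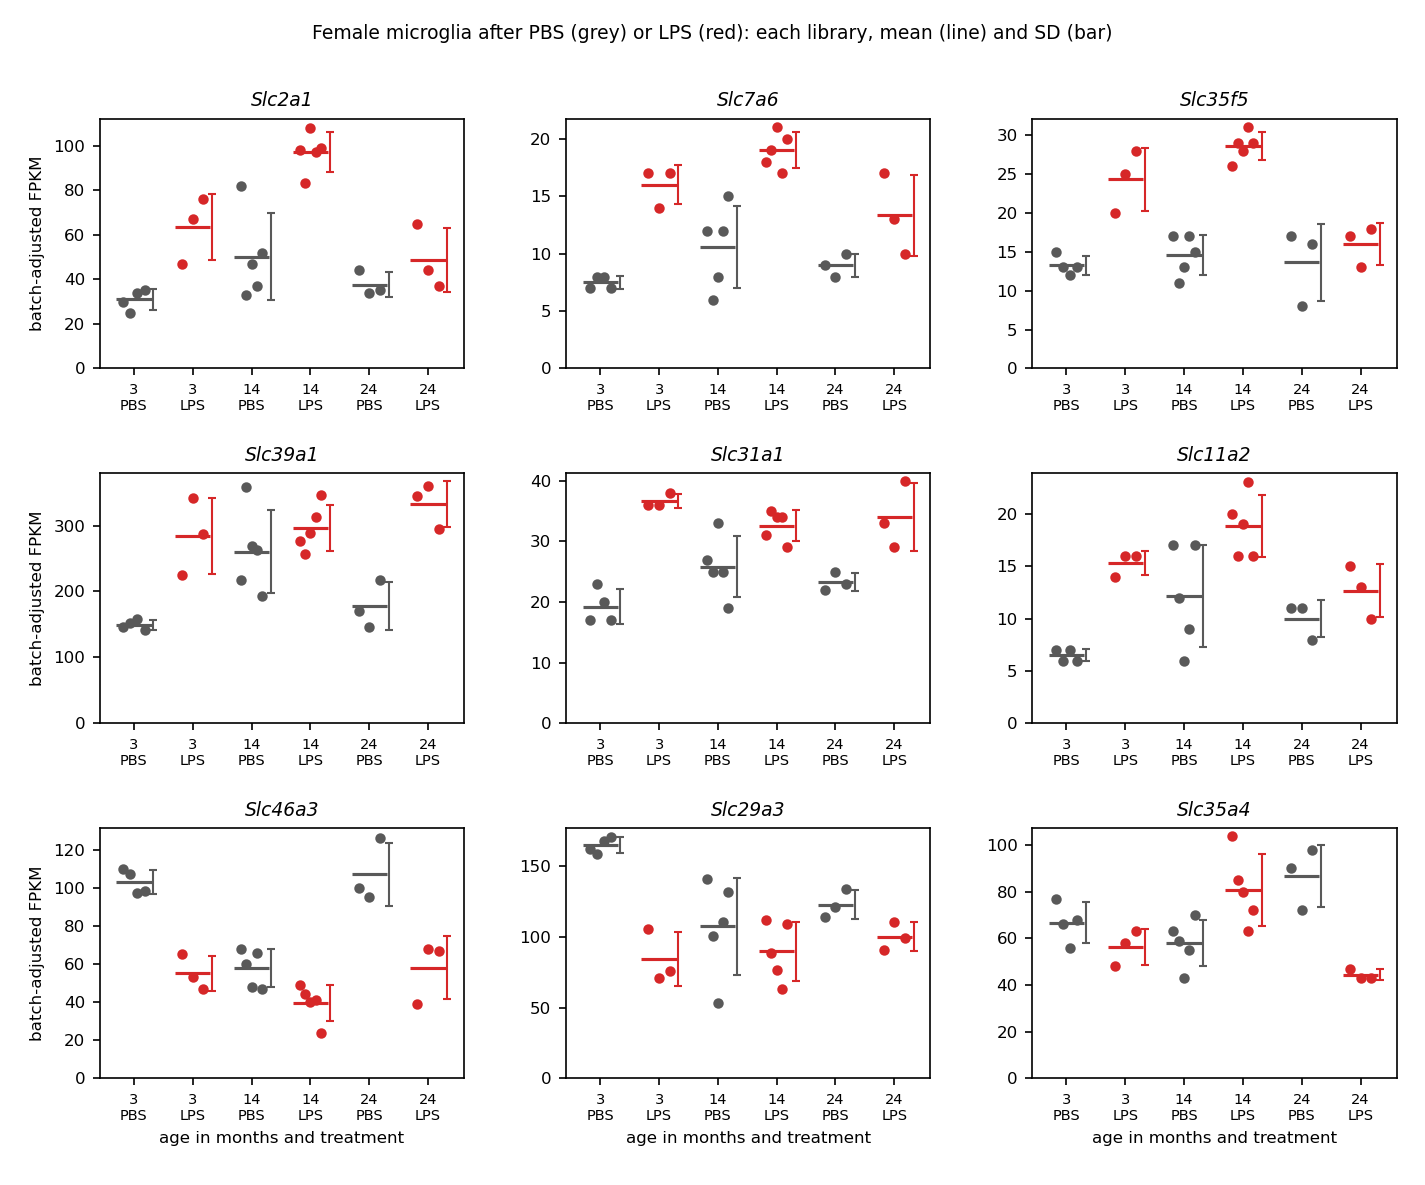
Each panel gives the level (batch-adjusted FPKM, axis from 0) of a carrier in every library of females given PBS (grey) or LPS (red) at 3, 14 and 24 months, with the group mean as a line and its SD as a bar. The LPS libraries of Slc2a1, Slc7a6 and Slc35f5 stand above the PBS libraries at 3 and 14 months, those of Slc39a1 at 3 and 24 months, and those of Slc46a3 below them at 3 and 24 months.

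Whether the response to LPS differed between ages was tested as the difference of the fold changes. No carrier passed for 14 against 3 months or for 24 against 3 months with limma, beside 17 called genes (0.301%) and 0 called genes (0%) in the whole table. At an unadjusted p under 0.05 and a fold over 1.5, 11 and 9 of the 86 carriers passed, beside 454 and 576 of all 5647 genes. The intervals show how much could be told. For 14 against 3 months the difference was 0.01 (95% interval -0.62 to 0.65) for Slc2a1, 0.12 (-0.47 to 0.70) for Slc35f5 and -0.15 (-0.82 to 0.51) for Slc7a6. For Slc39a1 it was -0.69 (-1.18 to -0.21), with a limma adjusted p of 0.262, and for Slc35a4 0.71 (0.23 to 1.19), with one of 0.244. For 24 against 3 months it was -0.0011 (-0.65 to 0.65) for Slc46a3, 0.0054 (-0.54 to 0.55) for Slc39a1 and -0.66 (-1.38 to 0.06) for Slc2a1.

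The next comparisons follow the carriers over adult life in females given PBS. Age as a whole, tested by limma's F-test over the 6 later ages, was called for 8 of 86 carriers (9.3%, against 14.8% of all genes), each with its largest change downward (9.6% of all genes): Slc46a3, Slc39a10, Slc25a45, Slc25a37, Slc29a3, Slc16a6, Slc37a2 and Slc2a5. Against 3 months, 10 carriers were called at 12 months (11.6% against 9.07%), 2 of them higher (1.31% of all genes) and 8 lower (7.76%). At 16 months 13 were called (15.1% against 9.01%), all lower (6% of all genes), and at 24 months 1, which was lower (1.16% against 2.09% called and 0.531% lower). The carriers' median log2 fold change was -0.13, -0.24 and -0.07 at these ages, beside -0.19, -0.18 and -0.02 over all genes. Most of the falls did not hold under other scalings: at 16 months 13 falls became 2 with libraries scaled to the median ratio of their genes (with 3 carriers higher) or to the same total (none higher), and at 12 months 8 became 2 under each. The median over all genes moved to -0.02 and -0.08 at 16 months, and to 0.00 and -0.02 at 12 months. Deposited values between 0 and 1 occurred in every library of the other female PBS ages and in none of the 5 libraries of 16 months. In females of 16 months this difference between libraries cannot be told apart from age, and its part was not tested.

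The 2 carriers lower at 16 months under each scaling were Slc46a3 and Slc25a45. Slc46a3 was at 110, 107, 97 and 98 FPKM at 3 months, at 40, 17, 42 and 55 FPKM at 12 months and at 82, 24, 52, 44 and 38 FPKM at 16 months. It was lower than at 3 months in every library of 12 and 16 months, with log2 fold changes of -1.51 (SE 0.30, limma adjusted p = 0.00456) and -1.19 (SE 0.29, adjusted p = 0.00834). At 24 months it was at 100, 95 and 126 FPKM, which overlapped the 3-month level (log2 fold change 0.05, SE 0.32, limma adjusted p = 0.956) and was above 16 months by 1.24 (SE 0.31, adjusted p = 0.0291; 3.95% of all genes were called between these ages). The order of its group means was 38.5 FPKM at 12 months, 48 at 16, 56 at 9, 57.8 at 14, 61.5 at 6, 103 at 3 and 107 at 24 months, and the libraries of the 5 ages from 6 to 16 months overlapped their neighbours in that order, as did those of 3 and 24 months.

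Slc25a45 was at 135, 111, 111 and 119 FPKM at 3 months. Its libraries of 6 months (89 and 114 FPKM) and 9 months (100, 137 and 99 FPKM) overlapped those of 3 months. It was at 78, 93, 96 and 80 FPKM at 12 months and at 73, 82, 71, 66 and 77 FPKM at 14 months, and these 2 ages overlapped each other. At 16 months it was at 58, 47, 50, 48 and 55 FPKM. The 16-month libraries were below those of every other female age, with a log2 fold change of -1.19 against 3 months (SE 0.13, limma adjusted p = 3.84e-06). At 14 months it was -0.68 (SE 0.13, limma adjusted p = 0.00401; 3.31% of all genes were called). At 24 months it was at 106, 116 and 105 FPKM, which was 1.07 above 16 months (SE 0.14, limma adjusted p = 8.46e-05) and -0.12 (SE 0.14, adjusted p = 0.70) from 3 months. Of the other carriers, the fucose carrier Slc35c1 was the third called between 16 and 24 months (0.85 higher, SE 0.24, limma adjusted p = 0.0461).

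Slc39a10, a zinc importer of the plasma membrane, was at 15, 15, 15 and 14 FPKM at 3 months, at 6, 5, 3 and 9 FPKM at 12 months and at 6, 7 and 9 FPKM at 24 months. All of these later libraries were lower. The log2 fold change was -1.30 at 12 months (SE 0.23, limma adjusted p = 0.00257), called in each leave-out and scaling, and -0.93 at 24 months (SE 0.25, adjusted p = 0.0466), a call lost with 6 of 7 libraries left out. Slc39a1 was higher at 12 months, at 208, 215, 458 and 229 FPKM against 141 to 158 FPKM (log2 fold change 0.81, SE 0.23, limma adjusted p = 0.0283). That call was lost without replicate 3 of 12 months (0.54, adjusted p = 0.103) and without any 1 of the 3-month libraries (0.78 to 0.84). Slc7a6 also rose at 12 months, from 7 to 8 FPKM to 14, 13, 10 and 16 FPKM (0.73, SE 0.23, limma adjusted p = 0.0393), a call lost with 7 of 8 libraries left out in turn (0.64 to 0.85).

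The remaining falls at 12 and 16 months spread over several substrates, and as calls against 3 months they were lost under both other scalings, so they are given as values of the main scaling. Of the mitochondrial carriers, 3 of 16 fell at 12 months and 4 of 16 at 16 months. Slc25a37 (mitoferrin), the mitochondrial iron importer, was at 17, 21, 19 and 22 FPKM at 3 months, at 13, 14, 6 and 10 FPKM at 12 months and at 12, 11, 12, 13 and 8 FPKM at 16 months. Both later ages lay below 3 months, with log2 fold changes of -0.87 (SE 0.23, limma adjusted p = 0.0184) and -0.78 (SE 0.22, adjusted p = 0.0209). Its call over all female ages was lost under median-ratio scaling and not with libraries scaled to the same total. Slc25a36 had log2 fold changes of -0.66 at 12 and -0.63 at 16 months, the outer membrane protein Slc25a46 one of -1.09 at 12 months, and the carnitine and acylcarnitine carrier Slc25a20 one of -0.96 at 16 months.

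Of the monocarboxylate group, Slc16a6 was at 126, 113, 104 and 124 FPKM at 3 months, at 56, 66, 81 and 76 FPKM at 12 months and at 88, 72, 48, 71 and 95 FPKM at 16 months. It was lower without overlap at both ages (log2 fold change -0.74, SE 0.18, limma adjusted p = 0.0137, and -0.67, SE 0.17, adjusted p = 0.0141). Over all female ages it was called under each of 8 alternatives, both scalings among them (-0.76 to -0.68), and with each of 26 libraries left out in turn. The lysosomal sialic acid exporter Slc17a5 fell by 0.87 at 16 months. Slc29a3 was at 101, 107, 70, 101 and 96 FPKM at 16 months against 159 to 171 FPKM at 3 months (log2 fold change -0.80, SE 0.20, limma adjusted p = 0.0123). The sugar carriers Slc37a2 (-0.69) and Slc50a1 (-0.68), the choline carrier Slc44a2 (-0.69) and the UDP sugar carrier Slc35b4 (-0.74) were also lower at 16 months. The Slc35 family members Slc35b1 (-1.03) and Slc35a5 (-0.72) were lower at 12 months. Of the amino acid carriers 0 of 13 were called at 16 months.

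Besides these ages, no carrier was called at 6 against 3 months (limma; 0.301% of all genes), and 1 at 9 months, the zinc carrier Slc30a9, which fell by 1.01 (SE 0.26, limma adjusted p = 0.0345; 2.66% of all genes). At 14 against 3 months 4 were called (3.31% of all genes). Beside Slc25a45 these were Slc16a6 (-0.66, SE 0.17, limma adjusted p = 0.0327) and Slc25a37 (-0.86, SE 0.22, adjusted p = 0.0266), both lower, and Slc39a1, which was higher as at 12 months (0.77, SE 0.22, adjusted p = 0.0477), with all 5 libraries above those of 3 months. Slc2a5 passed the test over all female ages (limma adjusted p = 0.0414), with its largest difference of -0.59 at 6 months, where its 2 libraries were at 423 and 355 FPKM against 536 to 669 FPKM at 3 months. That call was lost with 13 of 26 libraries left out in turn (-0.71 to -0.52), under median-ratio scaling, with a pseudocount of 5 and without the trend. Markers moved with the female ages: 6 of 10 microglia markers were lower at 12 months (summed level 14974 to 17477 against 24857 to 26494 at 3 months) and 6 of 10 at 16 months (15493 to 21124). Of the border macrophage markers 6 of 7 were lower at 12 months and 0 of 7 at 16 months, and 2 of 3 T and NK cell markers were higher at 16 months. The border macrophage markers summed to 522 to 644 at 3 months, 475 to 554 at 6 and 411 to 447 at 9 months. They summed to 260 to 322 at 12, 258 to 524 at 14, 347 to 458 at 16 and 501 to 734 at 24 months. The medians of these sums were 301 at 12 and 302 at 14 months. Slc46a3 was at 17 to 55 FPKM at 12 and at 47 to 68 FPKM at 14 months. At 6 months the border macrophage sums overlapped those of 3 months, and Slc46a3 was at 64 and 59 FPKM against 97 to 110 FPKM. At 24 months 0 of 7 border macrophage markers were called, 1 of 10 microglia markers was lower (17235 to 20303) and 3 of 3 T and NK cell markers were higher. Over all female ages 6 of 14 neutrophil markers were called, each with its largest change downward. Against 3 months 2 of 14 were lower at 12, 0 at 16 and 2 at 24 months. They summed to 6875 to 18618 at 3, 1864 to 5248 at 12, 2628 to 15608 at 16 and 3155 to 8587 at 24 months. Of the monocyte markers 1 of 5 was lower at 12 months and 1 of 5 higher at 16 months. The part of these markers in the carriers' differences was not tested.

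In males given PBS, age as a whole was called for 4 of 86 carriers (4.65%, against 8.36% of all genes), 3 with their largest change upward (5.72% of all genes) and 1 downward (2.64%). The former were Slc16a3, Slc8b1 and Slc9a3r1, each called with every male library left out in turn, and the latter the adaptor Slc4a1ap (-0.64 at 6 months, limma adjusted p = 0.0472), a call lost with 20 of 27 libraries left out (-0.90 to -0.52). Against 3 months, 1 carrier was called at 12 months, where it was higher (1.16% against 0.903% called and 0.797% higher). At 16 months 5 were called (5.81% against 6.29%), 4 higher (4.52% of all genes) and 1 lower (1.77%), and at 24 months 2, both higher (2.33% against 2.85% called and 2.73% higher). Slc16a3 (MCT4), which exports lactate, was at 17, 10, 10 and 13 FPKM at 3 months, at 29, 23, 31 and 26 FPKM at 16 months, at 28, 29, 18, 29 and 35 FPKM at 19 months and at 15, 35, 29 and 26 FPKM at 24 months. The libraries of 16 and 19 months were all above those of 3 months, and those of 24 months overlapped them. The log2 fold changes were 1.09 at 16 months (SE 0.28, limma adjusted p = 0.0128), 1.09 at 19 months (SE 0.26, adjusted p = 0.0132; 3.05% of all genes were called) and 0.98 at 24 months (SE 0.28, adjusted p = 0.0477). Up to 9 months its group means were 12.5, 11.8 and 13 FPKM. The call at 16 months was lost without replicate 3 of 3 months (1.00, limma adjusted p = 0.0516) and the call at 24 months with 6 of 8 libraries left out in turn (0.83 to 1.22).

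Slc8b1, the exchanger that takes calcium out of mitochondria against sodium, was at 8, 7, 10 and 7 FPKM at 3 months, at 14 and 22 FPKM at 12 months and at 12, 14, 16 and 15 FPKM at 24 months. Both later groups were above 3 months, by 1.06 (SE 0.24, limma adjusted p = 0.0215) and 0.77 (SE 0.19, adjusted p = 0.0247), with the first lost in 4 of 6 and the second in 5 of 8 leave-outs (0.75 to 1.37 and 0.71 to 0.87). The adaptor Slc9a3r1 was at 14, 14, 15 and 13 FPKM at 3 months and at 27, 23, 20 and 27 FPKM at 16 months, with no overlap (0.74, SE 0.19, limma adjusted p = 0.0137; lost without replicate 1 or 4 of 16 months, 0.69 to 0.83 over the leave-outs), and 0.77 higher at 19 months (SE 0.18, adjusted p = 0.0114).

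Slc2a1 rose most among the carriers in males, by 1.42 at 16 months (SE 0.40, limma adjusted p = 0.0268) and 1.49 at 19 months (SE 0.38, adjusted p = 0.0213), but its libraries were scattered. They were at 49, 17, 20 and 25 FPKM at 3 months, at 53, 46, 97 and 101 FPKM at 16 months, at 108, 117, 86, 26 and 75 FPKM at 19 months and at 21, 48, 39 and 59 FPKM at 24 months. At 16 and at 19 months 1 library lay below the highest 3-month library, and the call at 16 months was lost with 5 of 8 libraries left out (1.24 to 1.73). Also at 16 months, Slc25a12 (0.69) was higher and Slc17a5 (-0.60) lower, with overlapping groups and calls lost with 5 of 8 libraries left out. Between 6 and 9 months Slc2a5 rose from 280, 212, 362 and 327 FPKM to 560, 591, 539 and 541 FPKM (0.94, SE 0.17, limma adjusted p = 0.00753; 0.708% of all genes were called), and the adaptor Slc4a1ap was the other call (1.02, SE 0.24, adjusted p = 0.0374).

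Several technical and cellular measures moved with male age. Neutrophil markers were higher, 6 of 14 at 12 months, 12 at 16 months and 8 at 24 months, with summed levels of 9265 to 32338 at 16 months against 2737 to 4648 at 3 months. Monocyte markers (3, 5 and 4 of 5 higher) and T and NK cell markers (3 of 3 at 16 and at 24 months) followed the same ages. Microglia markers were lower, 4 of 10 at 16 months (summed level 14675 to 18121 against 22444 to 24997 at 3 months) and 1 of 10 at 24 months, and of the border macrophage markers 1 of 7 was lower at 12 months, 2 at 16 and 0 at 24 months. The part of all these markers was not tested. Deposited values between 0 and 1 also followed male age. They occurred in every library of 6 and 9 months and in replicates 3 and 4 of 3 months. They were absent from every library of 12, 16 and 24 months, and at 19 months only replicate 1 held them. In males this difference between libraries cannot be fully told apart from age, and its part was not tested. Where only male libraries lacking them were compared with limma, 0 carriers were called over the male ages and 1 at 16 months. Of 3 months only replicates 1 and 2 entered there, and no library of 6 or 9 months.

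**Figure D3:**
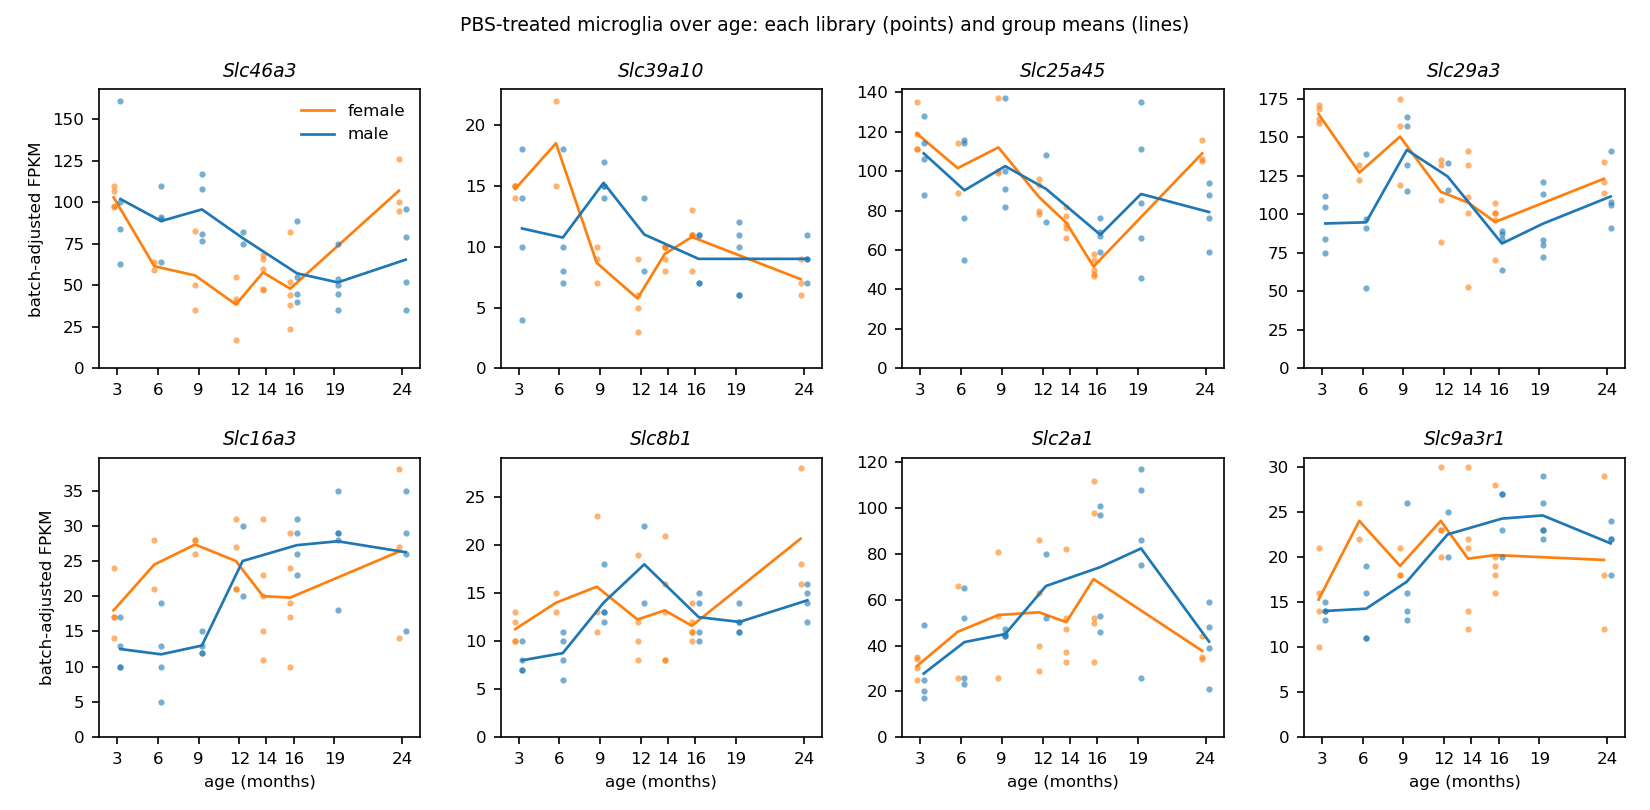
Each panel gives the level (batch-adjusted FPKM, axis from 0) of a carrier in every PBS library (points) against age in months, with lines joining the group means of females (orange) and males (blue). In females Slc46a3 has group means of 38.5 to 61.5 FPKM from 6 to 16 months and 107 FPKM at 24 months, Slc25a45 is lowest at 16 months (51.6 FPKM) and at 109 FPKM at 24 months, and Slc16a3 in males lies at 11.8 to 13 FPKM up to 9 months and at 25 to 27.8 FPKM from 12 months on.

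Females and males were compared over the 6 ages they share. With limma 0 carriers were called, beside 13 of all genes (0.23%). At an unadjusted p under 0.05 with the fold, 0 of 86 carriers and 38 of 5647 genes passed. Slc38a2 was lower in females (log2 difference -0.40, SE 0.08, limma adjusted p = 0.0194) and Slc2a5 higher by 0.28 (SE 0.07, adjusted p = 0.0336), both under the fold of 1.5. Whether the change from 3 to 24 months differed between sexes was called for 0 carriers by limma, beside 1 of all genes (0.0177%). At an unadjusted p under 0.05 with the fold, 5 of 86 carriers passed, beside 398 of 5647 genes. Among these 5 carriers, the sodium and proton exchanger Slc9a9 had a female minus male difference of -0.72 (SE 0.29, limma adjusted p = 0.495) and Slc7a8 one of -0.84 (SE 0.36, adjusted p = 0.517). The rise of Slc16a3 was called in males and not in females (0.44, SE 0.32, limma adjusted p = 0.484 at 24 months), but the test of that difference gave -0.54 (SE 0.43, adjusted p = 0.764).

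Genes that work with the carriers were followed in 3 lists. Of the carrier partners and other transporters (21 of 30 measured), 2 fell after LPS at 3 months, Emb (embigin, a partner of the lactate carriers; log2 fold change -1.40, limma adjusted p = 0.049) and Mfsd11 (-0.68, adjusted p = 0.015), and 0 were called at 14 and 24 months. At 16 against 3 months Emb was higher in males (1.26, limma adjusted p = 0.00159) and the cystine exporter Ctns lower in females (-0.95, adjusted p = 0.0225). Where Emb fell, 9 of 14 neutrophil markers were lower, and where it rose 12 of 14 were higher. The part of neutrophil RNA in the changes of Emb was not tested. Of the genes that sense amino acids at the lysosome (14 of 31 measured), the Ragulator members Lamtor4 (-0.64 at 3 months, limma adjusted p = 0.0228) and Lamtor1 (-0.63 at 24 months, adjusted p = 0.0362) fell after LPS, and Flcn (-0.87, adjusted p = 0.00857) and Nprl2 (-0.97, adjusted p = 0.0256) in females of 16 months.

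The amino acid and oxidative stress response list (12 of 21 measured) holds factors known to switch on amino acid carriers. Atf4, its central transcription factor, rose after LPS at 3 months (0.87, limma adjusted p = 0.00273) and at 14 months (0.63, adjusted p = 0.0293). The thioredoxin reductase Txnrd1 rose at 3 months (1.56, limma adjusted p = 6.56e-05) and 24 months (1.06, adjusted p = 0.00979), and Phgdh, which starts serine synthesis, fell at 24 months (-0.89, adjusted p = 0.00659). At 16 months against 3 months Txnrd1 was higher in females (1.01, limma adjusted p = 0.0395) and in males (1.50, adjusted p = 0.0283), and Psat1, another enzyme of serine synthesis, in males (1.05, adjusted p = 0.0156). These lists and the carriers were tested in the same fits.

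**Figure D4:**
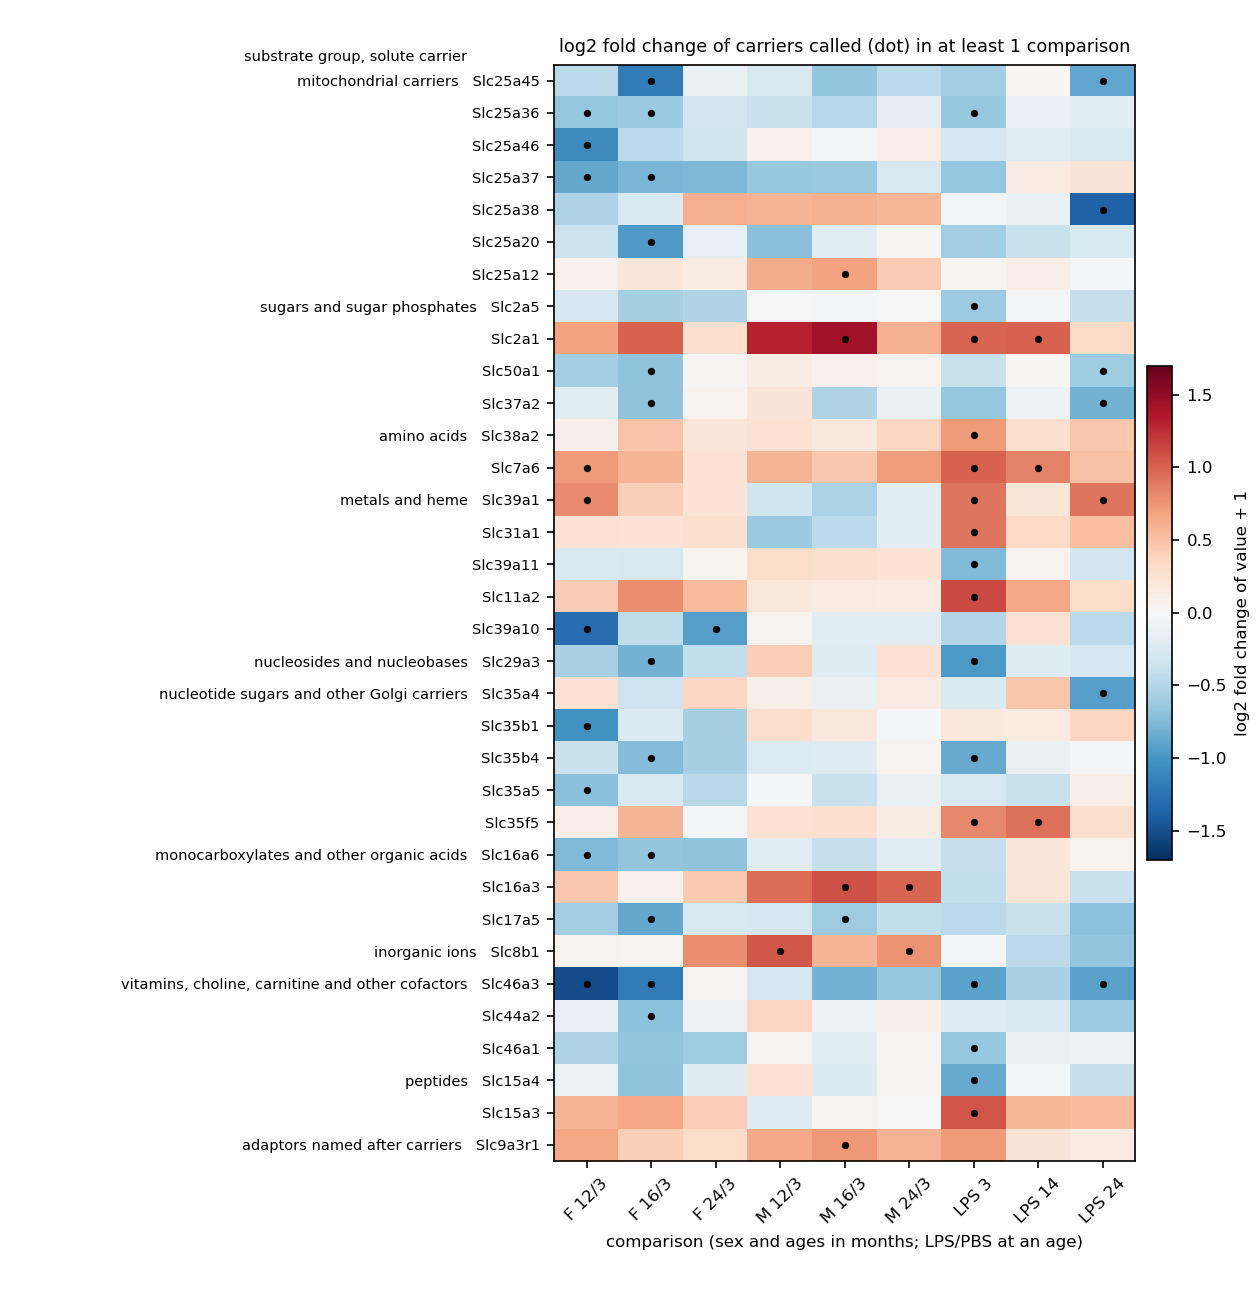
Log2 fold changes (value + 1; red higher, blue lower) of carriers called at least once among 9 comparisons, in rows by substrate group: females and males at 12, 16 and 24 against 3 months, and LPS against PBS at 3, 14 and 24 months, a dot marking a call. Slc46a3 is blue with dots in females at 12 and 16 months and after LPS at 3 and 24 months, and Slc2a1 is red with dots in males at 16 months and after LPS at 3 and 14 months.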

How the data were processed

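Bulk RNA-seq libraries of sorted microglia (64, in 17 groups of sex, age and treatment, taken from the sample labels) were analysed from the deposited gene table of 5647 genes. Per the labels and the methods of the study, reads were aligned with HISAT2 2.0.4 and Bowtie2 2.2.5 to mm10 and quantified as FPKM with RSEM 1.2.12, genes averaging under 10 FPKM were removed, and batches were adjusted with ComBat_seq. The deposited values are therefore treated as a score: batch-adjusted FPKM rounded to whole numbers (297 values were not whole, 7 of them above 1), not counts, so no count model was run and sequencing depth and its precision are unknown.

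Here log2(value + 1) was fitted with limma 3.58.1 in R 4.3.3 (variance trend, Benjamini-Hochberg adjustment over 5647 genes), in 1 fit each for the female PBS groups, the male PBS groups, the 6 female groups of the LPS experiment, and both sexes. A call needs a fold above 1.5 with an adjusted p below 0.05. Genes named are the called carriers and a list of abundant or well known carriers, and groups were called not overlapping where every value of one lay beyond those of the other. Results of 2 carriers are not reported here and not drawn in the map of fold changes, though the counts hold them. The carriers and the lists were chosen with earlier results of these data known. The fits were checked on made-up tables with known changes. Alternatives were other pseudocounts (0.5 and 5), genes with a mean of at least 50, 2 scalings, no trend, robust variance, the groups alone, unadjusted p, a replicate block and each library left out. Promoters and their coordinates are RefSeq (GRCm38.p6). Figures were drawn with matplotlib 3.10.9.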

Additional observations from a re-analysis of the deposited data

Results flagged for a closer look

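In 5 of the 71 values tested (a named carrier in a group of 4 to 10 libraries), 1 library stood far from the others of its group by Dixon's criterion at 95%, which chance alone reaches in about 1 of 20 groups. Slc39a1 was at 458 FPKM in replicate 3 of the 12-month PBS females, against 208 to 229 FPKM in the other 3, and the call of Slc39a1 at 12 months was lost without this library. The other 4 were in the 3-month PBS females, whose values lie close together, so that small gaps reach the criterion. Slc39a10 was at 14 FPKM in replicate 4 against 15 FPKM in each of the others. Slc25a20 was at 17 FPKM in replicate 2 against 14 FPKM in each of the others. Slc37a2 was at 47 FPKM in replicate 1 against 39 to 40 FPKM. Slc38a2 was at 30 FPKM in replicate 2 against 21 to 22 FPKM.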

How the results depend on the processing

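Of the 71 calls of a carrier in a comparison, 25 held under each alternative and 20 with each library left out in turn. The values cannot show what read depth would allow, and in the groups of 2 or 3 mice 1 library can end a call. The cause of the changes below was not tested, except that fewer genes were tested with a mean of at least 50 and that fewer libraries entered where some were left out.

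With genes of a mean of at least 50, counts of called carriers were 4 (12 months, females), 8 (16 months, females), 2 (male ages), 0, 1 and 0 (12, 16 and 24 months, males) and 6, 1 and 5 (LPS at 3, 14 and 24 months). With median-ratio scaling they were 5, 5 and 0 in females of 12, 16 and 24 months and 0 in males of 24 months. Scaled to the same total they were 4 and 2 (12 and 16 months, females), 7 (male ages) and 0 (24 months, males). With a pseudocount of 0.5 they were 0 and 1 (24 months, females and males), and with 5 they were 3 and 1 (16 and 24 months, males). Without the trend they were 5 (female ages) and 1 (24 months, males), and with robust variance 0 (24 months, females). With the groups compared alone they were 21 and 7 (16 and 24 months, females), 0 and 0 (12 and 24 months, males) and 2 (LPS at 24 months). With unadjusted p they were 20 and 9 (16 and 24 months, females), 8, 10 and 5 (12, 16 and 24 months, males), 5 and 17 (LPS at 14 and 24 months), 11 and 9 (difference of the LPS response at 14 and 24 from 3 months) and 5 (sex difference of 24 against 3 months). Among male libraries lacking values between 0 and 1 they were 0 (ages), 0, 1 and 0 (12, 16 and 24 months), and the adaptor Slc4a1ap, lower at 6 months over the male ages, turned to 0.52 (limma adjusted p = 0.806). No library of 6 or 9 months was left in that comparison, so the 0.52 belongs to another age.

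Replicate numbers of the sample titles are shared between groups, but same-numbered libraries did not deviate together (median correlation of their residuals 4.3e-05 in females, -0.0044 in males and 0.014 in the LPS experiment). The numbers were therefore not taken to pair mice. The columns of the deposited values number some libraries differently, and pairing by those numbers was not tested. With a replicate block the counts were 8 (female ages), 9, 12 and 0 (12, 16 and 24 months, females), 6 (male ages), 1, 4 and 1 (12, 16 and 24 months, males), 16, 3 and 8 (LPS at 3, 14 and 24 months) and 0 for the differences of the LPS response and of the sexes.

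With each library left out in turn, counts ranged from 4 to 13 (female ages), 3 to 11, 5 to 12 and 0 to 1 (12, 16 and 24 months, females), 3 to 7 (male ages), 0 to 1, 1 to 5 and 0 to 2 (12, 16 and 24 months, males), 6 to 14, 2 to 3 and 4 to 8 (LPS at 3, 14 and 24 months), 0 to 0 and 0 to 1 (difference of the LPS response at 14 and 24 from 3 months) and 0 to 0 (both tests between sexes). The libraries that moved a count most were the 3-month females, without which 3 to 5 (12 months) and 5 to 8 (16 months) carriers were called, LPS replicates 2 and 3 of 3 months (6 and 8 left), PBS replicates 1 and 2 and LPS replicates 1 and 2 of 24 months (4, 5, 5 and 4 left), replicates 1 and 3 of 12 months (5 and 6 left) and replicate 3 of 16 months in females (8 left), and in males replicates 3 and 4 of 3 months (1 and 2 left) and 1, 3 and 4 of 16 months (2, 3 and 3 left).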
